A study of Mus musculus with 4 samples.

Results

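The genes described are 10 natural killer (NK) receptor and adaptor genes, Klrg1, Klrk1, Hcst, Klrd1, Klrc1, Klrc2, Klre1, Klrb1c, Klra7 and Klra6, of 32285 genes counted. They were chosen by name, and all 10 were found in the count matrices. Each was followed in CD8 T cells, CD4 T cells and NK cells from the spleens of 2 female mice that carried a GFP-marked lymphoma, 1 with the genotype pBIC10 and 1 with the genotype pBIC. The labels do not say what sets the pBIC10 genotype apart from pBIC, and they give neither the ages of the mice nor a wild-type animal. From each spleen live cells were sorted to a mix of 20% lymphoma (GFP-positive) and 80% GFP-negative cells, and a 10x 5′ gene expression library and a T-cell receptor (TCR) library were made from the mix. With 1 mouse of each genotype no test of the genotype is possible, so every difference below is between these mice, and the intervals given are exact 95% intervals that cover counting error only.

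NK receptors are lectin-like proteins that let NK cells and some T cells read the surface of other cells. Klrk1 encodes NKG2D, an activating receptor for ligands that stressed and transformed cells display, and Hcst encodes DAP10, the adaptor through which NKG2D signals. Klrd1 encodes CD94, which pairs with the inhibitory NKG2A (Klrc1) or the activating NKG2C (Klrc2) and binds the non-classical class I molecule Qa-1. Klrg1 encodes an inhibitory receptor for cadherins that is known from effector T cells and mature NK cells. Klrb1c encodes NK1.1, Klra7 and Klra6 encode members of the Ly49 family of class I receptors, and Klre1 encodes a lectin-like receptor of NK cells. Of the 10 genes, 9 lie on mouse chromosome 6, which holds the NK gene complex, while Hcst lies on chromosome 7.

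The gene expression matrices held 14991 barcodes and 147884282 UMIs in pBIC10, and 18129 barcodes and 166941618 UMIs in pBIC, where a UMI stands for 1 captured RNA molecule. After filters on genes, mitochondrial reads and doublets, 14271 and 17375 cells were used, and 712 barcodes occurred in both libraries. Of these, 43 had a TRB contig in both, and none of the 43 had the same TRB CDR3 in both. With the shared barcodes left out, an alternative chosen after seeing the data, the counts of genes past 1.5-fold between the mice given below were the same. CD8 T cells were cells with a TCR beta (TRB) contig, at least 1 Cd8a or Cd8b1 UMI and no Cd4 UMI, 2909 in pBIC10 and 6130 in pBIC. CD4 T cells had a TRB contig, at least 1 Cd4 UMI and no Cd8 UMI, 291 in pBIC10 and 975 in pBIC. NK cells had at least 1 Ncr1 UMI, no Cd3e UMI and no TRB contig, 20 in pBIC10 and 102 in pBIC. Median depth was 7987 and 6790.5 UMIs in CD8 T cells, 6259 and 5797 in CD4 T cells, and 16182 and 12790 in NK cells of pBIC10 and pBIC.

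The classes carried the markers of their names, and several also held RNA of other lineages. Summed over 7 NK markers, NK cells stood at 5204 CPM (UMIs of the genes per 1000000 UMIs of the class) in pBIC10 and 15067 CPM in pBIC, against 516 and 784 CPM in CD8 T cells. The same sum was 831 and 456 CPM in CD4 T cells, and 5550 and 4611 CPM in Csf1r-positive macrophage-like cells. The list holds Ncr1, which defined the NK class, and in pBIC10 the sum does not set NK cells apart from macrophage-like cells. Macrophage markers summed to 129 and 255 CPM in NK cells, against 15522 and 12943 CPM in the macrophage-like cells. The 6 T-cell markers summed to 56.8 CPM in NK cells of pBIC10, with 3 of them at 0, and to 648 CPM in NK cells of pBIC, where Cd3g alone was at 315 CPM. Of 5 markers of other innate lymphoid cells, which the rule does not separate from NK cells, Cxcr6 and Itga1 were at 0 in pBIC10 and none was at 0 in pBIC, and their sum was 123 and 146 CPM. B cells and erythroid cells, which should lack most of these receptors, served as a measure of free RNA. They are not clean for this use: erythroid cells of pBIC10 held 7031 CPM of neutrophil markers and 3001 CPM of macrophage markers against 3674 CPM of erythroid markers. B cells held 360 CPM of CD8 markers in pBIC10 and 9.27 CPM in pBIC, but 74.5 and 79.3 CPM of the T-cell markers. In CD8 T cells of pBIC10 the T-cell markers, at 3333 CPM, were above the CD8 markers, at 1209 CPM. The source of the CD8 RNA in B cells was not tested. Klrg1 reached 1.03 CPM in B cells of pBIC10 and 3.42 CPM in B cells of pBIC, and only Hcst was above 10 CPM there, at 55.05 and 53.6 CPM.

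Some of the CD8 T-cell results of pBIC10 depended on 1 large clonotype, as given below. Several large clonotypes of both mice are shown here by their TRB CDR3, as the authors' contig tables give it (5′ to 3′, from the conserved cysteine codon to the phenylalanine codon, mouse chromosome 6). Clonotypes are numbered within each mouse by their number of CD8 T cells. pBIC10 clonotype 1 joined TRBV31 to TRBJ1-6 and pBIC clonotype 1 joined TRBV12-1 to TRBJ2-5. Both had more Klrg1 than the median of their mouse's clonotypes of 20 or more CD8 T cells. pBIC10 clonotype 7 (TRBV3, TRBJ2-2) had the highest Klrg1 level of that mouse. pBIC10 clonotype 2 (TRBV12-2, TRBJ2-7), pBIC clonotype 3 (TRBV2, TRBJ2-4) and pBIC clonotype 33 (TRBV14, TRBJ1-1) were high in Klrk1 and Klrd1. pBIC clonotypes 27 and 45 (both TRBV12-2, TRBJ2-7), which the authors' tables list separately, had the same TRB CDR3 and were both high in Klrk1 and Klrd1.
pBIC10 clonotype 1: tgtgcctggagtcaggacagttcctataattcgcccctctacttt
pBIC10 clonotype 2: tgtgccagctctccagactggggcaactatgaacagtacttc
pBIC10 clonotype 7: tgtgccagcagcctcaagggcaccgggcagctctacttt
pBIC clonotype 1: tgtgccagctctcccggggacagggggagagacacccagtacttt
pBIC clonotype 3: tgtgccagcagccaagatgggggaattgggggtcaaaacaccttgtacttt
pBIC clonotype 33: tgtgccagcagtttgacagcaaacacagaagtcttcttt
pBIC clonotype 27: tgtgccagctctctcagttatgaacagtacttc
pBIC clonotype 45: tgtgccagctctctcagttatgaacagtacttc

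Of the 10 genes, 8 had a promoter in the RefSeq table used, which spans 250 bases before to 50 bases after a gene's start (build GRCm38.p6); Klrg1 and Klrd1 had no entry. The promoters of 3 genes that were detected together in the same CD8 T cells are shown: Klrk1 at chr6:129623815-129624114 (minus strand), Klrc1 at chr6:129678924-129679223 (minus strand) and Klre1 at chr6:129577963-129578262 (plus strand). Capitals mark matches to the RUNX motif TGTGGT or, in Klrk1, also to the AP-1 motif TGANTCA, both searched on both strands and here not overlapping. In the Klrc1 promoter the match reads ACCACA, which is TGTGGT on the other strand. Some genes have more than 1 entry, and of Klre1 the entry shown holds a match and the other entry none. A TGTGGT match was found in 6 of the 11 entries of the 8 genes (in Klrk1, Klrc1, Klrc2, Klre1 and Klrb1c) and in 16.8% of all 32851 promoters of the table, and TGANTCA was found in 7.81% of them. Both Klrc2 entries are among the 6, and they overlap and hold the same matches. The T-box motif GGTGTGA had no match in the 8 genes and was found in 3.98% of all promoters. A match is a run of letters, and binding was not measured.
Klrk1 promoter: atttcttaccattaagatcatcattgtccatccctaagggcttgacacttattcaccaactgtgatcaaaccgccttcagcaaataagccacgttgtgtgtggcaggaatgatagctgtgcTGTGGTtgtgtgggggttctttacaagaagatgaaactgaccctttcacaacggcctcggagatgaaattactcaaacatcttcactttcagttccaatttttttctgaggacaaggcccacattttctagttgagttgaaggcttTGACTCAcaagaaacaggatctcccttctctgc
Klrc1 promoter: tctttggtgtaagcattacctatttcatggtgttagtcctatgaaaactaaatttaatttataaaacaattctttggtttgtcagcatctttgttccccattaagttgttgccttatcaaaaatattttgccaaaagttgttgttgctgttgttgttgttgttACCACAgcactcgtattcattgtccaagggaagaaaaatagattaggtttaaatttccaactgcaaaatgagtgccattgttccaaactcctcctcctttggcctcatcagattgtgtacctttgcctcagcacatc
Klre1 promoter: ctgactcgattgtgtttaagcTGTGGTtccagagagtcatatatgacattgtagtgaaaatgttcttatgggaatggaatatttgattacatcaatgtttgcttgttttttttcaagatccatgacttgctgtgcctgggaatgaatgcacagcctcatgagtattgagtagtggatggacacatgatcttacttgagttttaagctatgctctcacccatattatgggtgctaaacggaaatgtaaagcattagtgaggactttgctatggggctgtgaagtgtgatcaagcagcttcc

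NK cells had the highest levels of 9 of the 10 genes in both mice, and Hcst was the exception. Klrb1c, the gene of NK1.1, was at 155 CPM in NK cells and 0.537 CPM in CD8 T cells of pBIC10, and at 511 CPM in NK cells and 5.34 CPM in CD8 T cells of pBIC, so NK cells were 288-fold and 95.6-fold higher. The pBIC10 figure rests on 49 UMIs, of which a single NK cell held 40.8%. Klra7, which encodes Ly49G, was 78.9-fold and 76.5-fold higher in NK cells than in CD8 T cells of pBIC10 and pBIC, and Klra6, which encodes Ly49F, was 26.4-fold and 12.2-fold higher. These 3 genes were close to absent from CD8 T cells: after every cell was thinned to 2000 UMIs, at most 0.975% of CD8 T cells held a UMI of any of them.

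The other receptors differed less, except that Klrc2 was 18.3-fold higher in NK cells of pBIC, above the 12.2-fold of Klra6 there. Klrk1 was at 442 CPM in NK cells and 40.9 CPM in CD8 T cells of pBIC10, a log2 ratio of 3.43 (3.17 to 3.68), and at 523 CPM in NK cells and 70.0 CPM in CD8 T cells of pBIC, a log2 ratio of 2.90 (2.79 to 3.02). Klrd1 gave log2 ratios of 2.37 in pBIC10 and 2.50 in pBIC, and Klrc1 1.66 and 1.39. The activating partner Klrc2 was further apart than the inhibitory Klrc1, with log2 ratios of 3.80 and 4.19, and Klre1 gave 3.01 and 3.43. For Klrg1, NK cells were 4.73-fold higher than CD8 T cells in pBIC10 and 1.54-fold higher in pBIC. Klrg1 was not alone in differing between the mice. The intervals of Klrk1 did not overlap, nor did those of Klrb1c (8.17, 7.36 to 9.04, in pBIC10 and 6.58, 6.38 to 6.78, in pBIC). Hcst was lower in NK cells, at 145 CPM against 319 CPM in CD8 T cells of pBIC10 and 336 CPM against 530 CPM in CD8 T cells of pBIC, although its partner Klrk1 was higher. Past 1.5-fold, 9 genes were higher and 1 was lower in NK cells of both mice. Of all genes with at least 20 UMIs over both classes, 18.1% were higher and 35.7% lower in pBIC10, and 12.5% higher and 24.8% lower in pBIC. The Ly49 genes and the Klrc genes have near-identical relatives, so reads may have been split or lost among them and their levels are uncertain.

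CD4 T cells shared Klrg1 and Hcst with CD8 T cells and had little of the rest. Klrg1 was at 105 CPM in CD4 and 142 CPM in CD8 T cells of pBIC10 and at 88.7 CPM in CD4 and 78.3 CPM in CD8 T cells of pBIC. Hcst was at 290 and 319 CPM in CD4 and CD8 T cells of pBIC10 and at 546 and 530 CPM in those of pBIC. By contrast Klrk1 was 5.36-fold lower in CD4 than in CD8 T cells of pBIC10 and 11.7-fold lower in pBIC, and Klrd1 was 3.70-fold and 8.43-fold lower. In pBIC, 8 genes were lower and 0 higher past 1.5-fold, Klra6 among the lower on 1 UMI against 154 (interval -9.71 to -1.90), where 6.18% of all genes were lower and 8.72% higher. In pBIC10, 6 were lower, among them Klre1 with 3 UMIs against 513 (log2 ratio -3.74, interval -6.02 to -2.18) and Klra7 with 1 against 63 (-2.30, -7.63 to 0.23), and 1 was higher, Klrb1c, with 4 UMIs against 18, where 9.55% of all genes were lower and 14.1% higher. Klra6 had 0 UMIs in CD4 T cells of pBIC10, which allows up to 1.14 CPM and places it neither above nor below the 0.835 CPM of CD8 T cells.

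**Figure D1:**
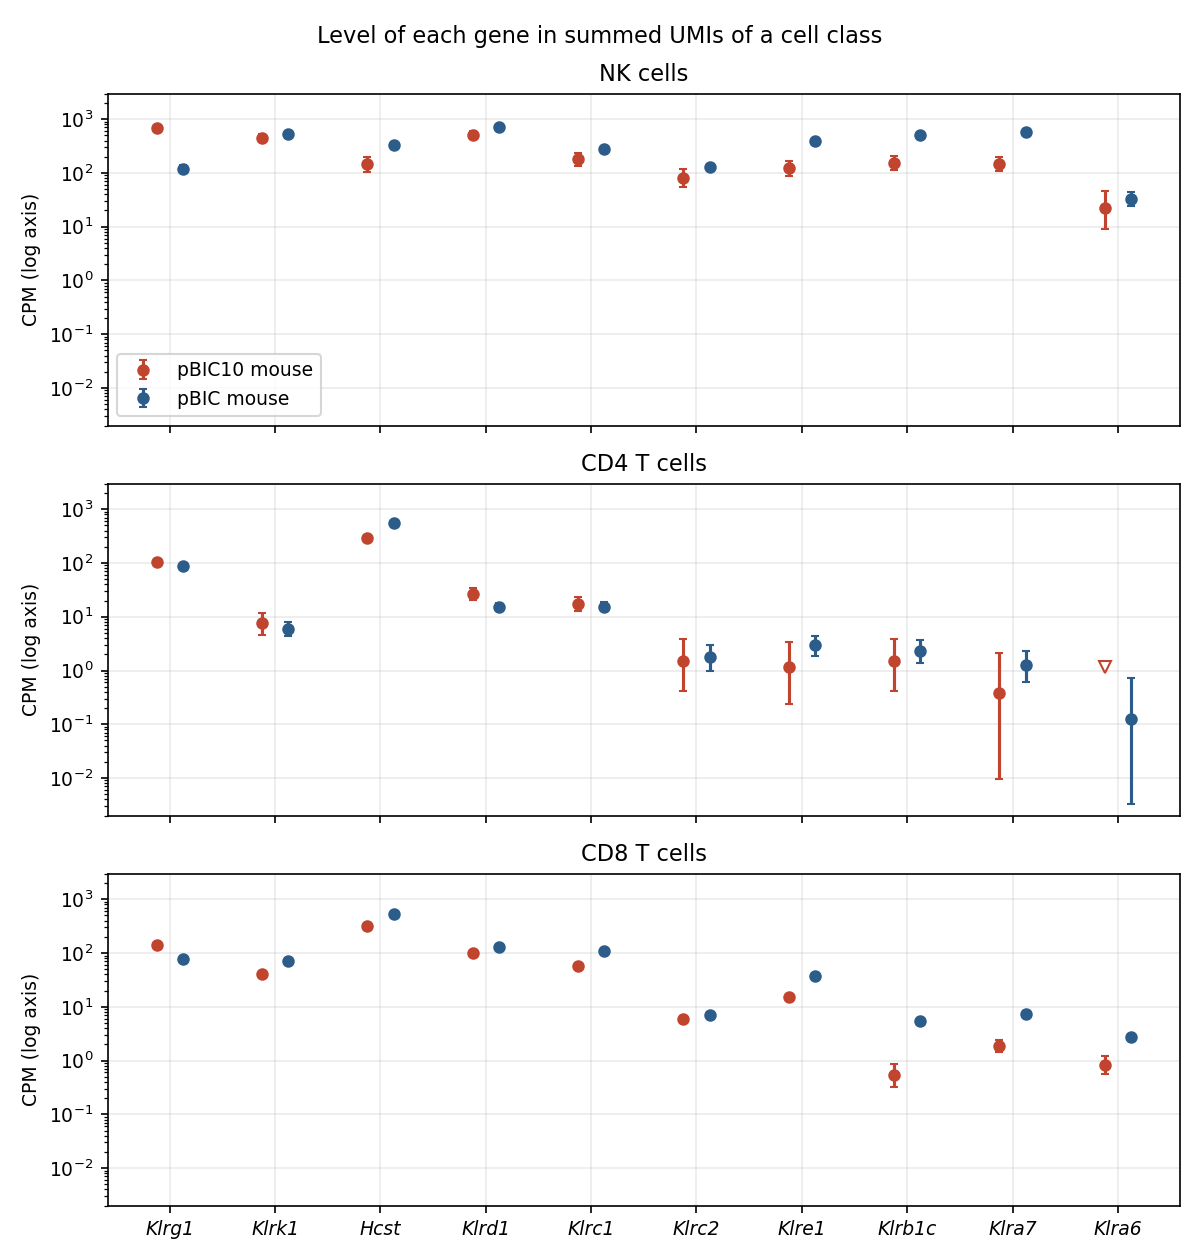
Level of each gene (CPM, log axis) in NK, CD4 T and CD8 T cells of the pBIC10 mouse (red) and the pBIC mouse (blue); points are summed UMIs of the class over its total, bars are exact 95% Poisson intervals, and the open triangle is the floor of 3 counts for Klra6, which had 0 UMIs in CD4 T cells of pBIC10. Klrb1c, Klra7 and Klra6 lie far lower in both T-cell classes than in NK cells, whereas Klrg1 and Hcst lie at similar height in CD4 and CD8 T cells.

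In CD8 T cells, Klrg1 was higher in pBIC10 while most of the other receptors were lower. Klrg1 was at 142 CPM in pBIC10 and 78.3 CPM in pBIC, a log2 ratio of 0.86 (0.80 to 0.92), and a Klrg1 UMI was found in 43.2% and 27.3% of the cells. After thinning to 2000 UMIs these shares were 17.0% and 10.5%, against 0.347% and 0.877% of B cells. Klrk1 was at 40.9 CPM in pBIC10 and 70.0 CPM in pBIC (1.71-fold lower), and its adaptor Hcst was at 319 and 530 CPM (1.66-fold lower). NKG2D and its adaptor were thus both lower in pBIC10, by similar factors.

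The CD94 and NKG2 genes did not move as a block. Klrc1 (NKG2A) was at 56.8 CPM in pBIC10 and 108 CPM in pBIC, a log2 ratio of -0.92 (-0.996 to -0.85), while its partner Klrd1 was at 98.8 and 129 CPM (-0.39, -0.45 to -0.33) and Klrc2 at 5.87 and 7.09 CPM (-0.27, -0.52 to -0.02), both inside the 1.5-fold limit. Klre1 was at 15.3 and 36.9 CPM, 2.41-fold lower. The NK-restricted genes showed the widest ratios on the fewest molecules: Klrb1c had 18 UMIs in pBIC10 and 306 in pBIC (9.95-fold lower in CPM), Klra7 63 and 428 (3.98-fold lower) and Klra6 28 and 154 (3.22-fold lower). In all, 1 of the 10 genes was higher, 7 were lower and 2 were neither. Of the 13920 genes tested, 40.6% were past 1.5-fold, 16.6% higher and 24% lower, and the median log2 ratio was -0.85 over the 10 genes and -0.16 over all genes.

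Other features of the CD8 T cells also differed between the mice. A UMI of Ccr7 or Lef1, genes of naive and memory cells, was found in 35.3% of CD8 T cells in pBIC10 and 31.2% in pBIC (12.0% and 9.93% after thinning). With such cells left out, an alternative chosen after seeing the data, 7 genes were past 1.5-fold: Klrg1 was higher (0.79), and Klrk1 (-0.70), Klrc1 (-0.69), Klre1 (-1.03), Klrb1c (-2.64), Klra7 (-2.48) and Klra6 (-1.32) were lower, while Hcst (-0.42) was not past it. Naive and memory cells without a UMI of either gene were not left out, so these values do not account for the whole mix of such cells. In both mice the cells left out also held more UMIs per cell on average than those kept, so the step removed deeper cells too. Summed macrophage markers were at 537 CPM in CD8 T cells of pBIC10 and 338 CPM in those of pBIC, neutrophil markers at 845 and 233 CPM, and B-cell markers at 94.4 and 243 CPM. Without cells that carried RNA of those lineages, 1 gene was higher and 8 were lower. The share of all genes past 1.5-fold was not computed for either of these restricted sets of cells, so their counts have no background.

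In CD4 T cells Hcst was lower and Klrd1 higher in pBIC10. Klrg1 was at 105 CPM in pBIC10 and 88.7 CPM in pBIC (log2 ratio 0.24, 0.03 to 0.44), and without the 42 and 15 Foxp3-positive cells, which are mostly regulatory T cells, the ratio was -0.18. Hcst was at 290 CPM in pBIC10 and 546 CPM in pBIC (-0.91, -1.03 to -0.80). Klrd1 was at 26.7 CPM in pBIC10 and 15.3 CPM in pBIC, a log2 ratio of 0.80 (0.36 to 1.24) on 70 and 120 UMIs. Klrk1 was at 7.63 and 5.998 CPM (0.35, -0.49 to 1.13) and Klrc1 at 17.2 and 15.4 CPM (0.15, -0.37 to 0.66), neither past the limit.

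Of 7 genes with enough UMIs in CD4 T cells, 1 was higher and 3 were lower, where 35.6% of all genes were past 1.5-fold, 11.8% higher and 23.8% lower. The lower genes other than Hcst rest on few molecules, 3 UMIs in pBIC10 and 23 in pBIC for Klre1 (-1.36, interval -3.74 to 0.37) and 4 and 18 for Klrb1c. CD4 T cells of pBIC10 also held more RNA of other lineages, with summed macrophage markers at 1776 CPM in pBIC10 and 244 CPM in pBIC, and neutrophil markers at 1002 and 170 CPM. With cells that carried such RNA left out, 2 genes were higher and 0 lower, and the Hcst log2 ratio was -0.21. The share of all genes past the limit was not computed in those cells.

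NK cells showed the widest Klrg1 difference. Klrg1 was at 672 CPM in NK cells of pBIC10 and 120 CPM in those of pBIC, a log2 ratio of 2.48 (2.18 to 2.78), and it was found in 15 of 20 and 51 of 102 cells. The ratio lay between 1.44 and 2.69 under the 13 alternatives tried. Klrk1 was at 442 CPM in pBIC10 and 523 CPM in pBIC (-0.24, -0.52 to 0.02), so the counting interval includes no difference. Hcst was at 145 CPM in pBIC10 and 336 CPM in pBIC, 2.32-fold lower. With cells that carried RNA of other lineages left out, the log2 ratios were -1.16 for Klrk1, past the limit, and -2.90 for Hcst. In pBIC10 these rest on a part of the 20 cells, which together held 140 Klrk1 and 46 Hcst UMIs.

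Klra7, Klrb1c and Klre1 were lower in NK cells of pBIC10 by more than 3-fold, and the other Ly49 gene, Klra6, was not past the limit. Klra7 was at 148 CPM in pBIC10 and 572 CPM in pBIC and was found in 6 of 20 and 67 of 102 cells. Klrb1c was at 155 and 511 CPM (3.30-fold lower) and Klre1 at 123 and 398 CPM (3.24-fold lower). Klrd1 was at 511 and 728 CPM (-0.51), Klrc1 at 180 and 282 CPM (-0.65), Klrc2 at 82.0 and 129 CPM (-0.66) and Klra6 at 22.1 and 32.9 CPM on 7 and 47 UMIs (-0.57, -1.97 to 0.58). One gene was higher, 6 were lower and 3 were neither, where 43.7% of 7466 genes were past 1.5-fold, 12.5% higher and 31.2% lower. The summed NK markers were also lower in pBIC10 (5204 and 15067 CPM), Gzma among them at 1388 and 9662 CPM, and the summed T-cell markers were lower too (56.8 and 648 CPM), and their part in the result was not tested. With NK cells restricted to those without any CD3 UMI or TCR alpha contig, 8 genes were past 1.5-fold. The share of all genes was not computed there. Klra6, with fewer than 20 UMIs in those cells, had a log2 ratio of 1.62.

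**Figure D2:**
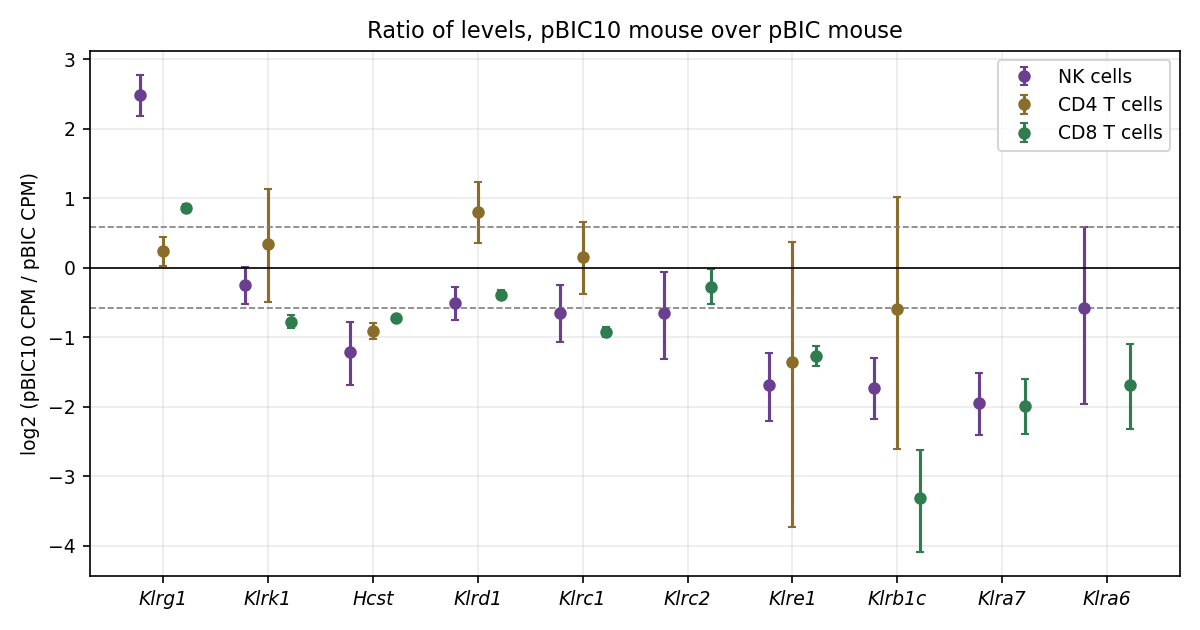
Log2 ratio of the level in the pBIC10 mouse over that in the pBIC mouse for each gene in NK (purple), CD4 T (brown) and CD8 T cells (green), for genes with at least 20 UMIs over both mice; bars are exact 95% conditional intervals for counting error and dashed lines mark 1.5-fold. Klrg1 is above the upper line in NK and CD8 T cells, whereas Klre1, Klrb1c and Klra7 lie below the lower line in both.

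The wider family of NK receptor and adaptor genes moved in the same mixed way. Of 43 further genes on this list, 36 could be tested in CD8 T cells, of which 5 were higher and 20 lower in pBIC10, where 16.6% of all genes were higher and 24% lower, and the list's median log2 ratio was -0.75. Cd160, a receptor for the TNF-family receptor HVEM and for class I, was at 46.1 CPM in pBIC10 and 134 CPM in pBIC (-1.54), and the Ly49 genes Klra3 at 1.55 and 8.01 CPM (-2.37) and Klra1 at 0.477 and 2.86 CPM (-2.58). Ncr1, which encodes NKp46, had 3 UMIs in pBIC10 and 104 in pBIC (-4.34, interval -6.64 to -2.76). Higher were the Fc receptor gene Fcgr3 (16.6 and 5.27 CPM, 1.66), its signalling chain Fcer1g (88.0 and 46.4 CPM, 0.92), the SLAM-family receptor Slamf6 (85.7 and 52.4 CPM, 0.71) and Crtam (65.0 and 40.3 CPM, 0.69), together with Sh2d1b1 on 29 and 28 UMIs (0.82), which is named for completeness. Fcgr3 and Fcer1g are also expressed by macrophages and neutrophils, whose summed markers were higher in these cells.

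In NK cells 34 genes of the list could be tested, of which 2 were higher and 20 lower in pBIC10, where 12.5% of all genes were higher and 31.2% lower. The median log2 ratio was -0.98 over the list and -0.21 over all genes. The lower genes were led by the Ly49 genes Klra1 (3 and 166 UMIs, -3.62, interval -5.91 to -2.05), Klra4 (31.5 and 226 CPM, -2.84), Klra3 (-2.71) and Klra8 (-2.46), by Cd160 (47.3 and 448 CPM, -3.24) and by Klrb1a (-2.24), and the higher ones were Klrb1b (199 and 60.2 CPM, 1.72) and Slamf7 (268 and 152 CPM, 0.82). Tyrobp, the adaptor DAP12 that serves several activating receptors, was chosen for mention after its values were seen and had a log2 ratio of -0.17.

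Within the CD8 T cells of pBIC, large clonotypes had lower levels of most of the NK receptors than singletons and a higher level of Klrg1, while in pBIC10 few of the genes differed past the limit. Clonotypes were sorted by the cell number the authors list: 891 CD8 T cells of pBIC10 were singletons, 1114 belonged to clonotypes of 2 to 9 cells, 794 to clonotypes of 10 to 99 and 109 to the 1 clonotype of 100 or more, and in pBIC the numbers were 754, 1435, 2847 and 1093 cells, the last in 7 clonotypes. Klrk1 was lower in each larger class, at 56.9, 35.7, 32.7 and 5.59 CPM in pBIC10 and at 126, 90.9, 57.7 and 43.6 CPM in pBIC. The counting intervals of the middle classes overlapped in pBIC10 (32.6 to 39.1 and 28.8 to 36.9 CPM), and no neighbouring intervals overlapped in pBIC. Klrd1 was at 117, 85.7, 107 and 24.7 CPM in pBIC10 and at 202, 153, 113 and 98.95 CPM in pBIC, so the order was unbroken in pBIC and broken in pBIC10.

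Klrg1 had the opposite order in pBIC, at 47.6, 73.2, 75.7 and 105 CPM, and none in pBIC10, at 144, 162, 105 and 156 CPM. In pBIC the middle classes had overlapping intervals (68.6 to 78.0 and 72.4 to 79.2 CPM). Klrg1 was higher in pBIC10 than in pBIC in each of the 4 size classes. The classes are not matched between the mice, since they are cell numbers and 3720 cells of pBIC10 and 8300 of pBIC had a clonotype. The levels of Klra7 and Klrb1c were highest in singletons: Klra7 was at 3.76, 1.60, 0 and 0 CPM in pBIC10 and at 38.6, 7.36, 3.05 and 0.328 CPM in pBIC, and Klrb1c at 1.34, 0.229, 0 and 0 CPM in pBIC10 and at 23.8, 4.37, 2.89 and 1.39 CPM in pBIC. Klrc1 ran at 59.6, 53.7, 63.2 and 23.9 CPM in pBIC10 and at 152, 125, 95.4 and 91.7 CPM in pBIC, and Hcst at 275, 324, 374 and 312 CPM in pBIC10 and at 590, 543, 543 and 455 CPM in pBIC.

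Clonotypes of 10 or more cells, pooled, were set against singletons. In pBIC Klrg1 was at 85.3 CPM in expanded clonotypes and 47.6 CPM in singletons (0.84, 0.67 to 1.01), Klrk1 at 53.2 and 126 CPM (-1.25) and Klrd1 at 108 and 202 CPM (-0.90). In pBIC, 1 gene was higher and 8 were lower, where 14.1% of all genes were past 1.5-fold, 8.97% higher and 5.17% lower. In pBIC10 Klrg1 was at 111 CPM in expanded clonotypes and 144 CPM in singletons (-0.37, -0.49 to -0.26), Hcst at 366 and 275 CPM (0.41) and Klrd1 at 96.0 and 117 CPM (-0.28), none past the limit. In pBIC10 0 of 8 genes tested were higher and 2 were lower, where 13% of all genes were past 1.5-fold, 5.89% higher and 7.16% lower. The lower genes were Klrk1, at 29.02 and 56.9 CPM, and Klra7, with 0 UMIs in expanded clonotypes and 42 in singletons, at least 11.6-fold lower against a floor of 3 counts.

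The pBIC10 result depended on 1 clonotype. With pBIC10 clonotype 2 left out, which was chosen after seeing the data, the log2 ratios of expanded clonotypes over singletons were -1.90 for Klrk1, -1.07 for Klrd1, -0.71 for Klrc1 and -1.55 for Klre1, and 5 genes were lower. With each clonotype weighted equally, 6 were lower. The share of all genes past the limit was not computed under these 2 settings. Of the genes of naive and memory cells, Tcf7 was lower in each larger class, at 55.6, 8.86, 1.75 and 1.60 CPM from singletons to the largest class of pBIC10 and at 84.5, 38.2, 27.2 and 11.6 CPM in pBIC. Others broke this order in the largest class: Lef1 was at 66.1, 39.9, 26.8 and 34.3 CPM in pBIC10 and at 60.1, 53.1, 48.9 and 52.1 CPM in pBIC, and Ccr7 at 115, 50.4, 30.1 and 20.8 CPM in pBIC10 and at 18.4, 7.44, 3.72 and 5.98 CPM in pBIC. Il7r was at 138, 94.6, 74.6 and 123 CPM in pBIC10 and at 197, 98.2, 64.6 and 60.5 CPM in pBIC. With cells holding a Ccr7 or Lef1 UMI left out, 0 genes were past the limit in pBIC10. In pBIC 8 were lower and 0 higher, and the Klrg1 log2 ratio was 0.40. The share of all genes was not computed there either. Among CD8 T cells of each mouse, the cells with such a UMI were on average the deeper ones, as given above.

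CD4 T cells held 34 cells in expanded clonotypes of pBIC10 and 489 in those of pBIC, against 141 and 161 singletons. In pBIC Klrk1 was at 4.43 CPM in expanded clonotypes and 17.7 CPM in singletons, on 17 and 21 UMIs, and Klrg1 at 95.1 and 71.8 CPM. In pBIC10 Klrg1 was at 46.6 CPM in expanded clonotypes and 107 CPM in singletons, on 16 and 132 UMIs.

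**Figure D3:**
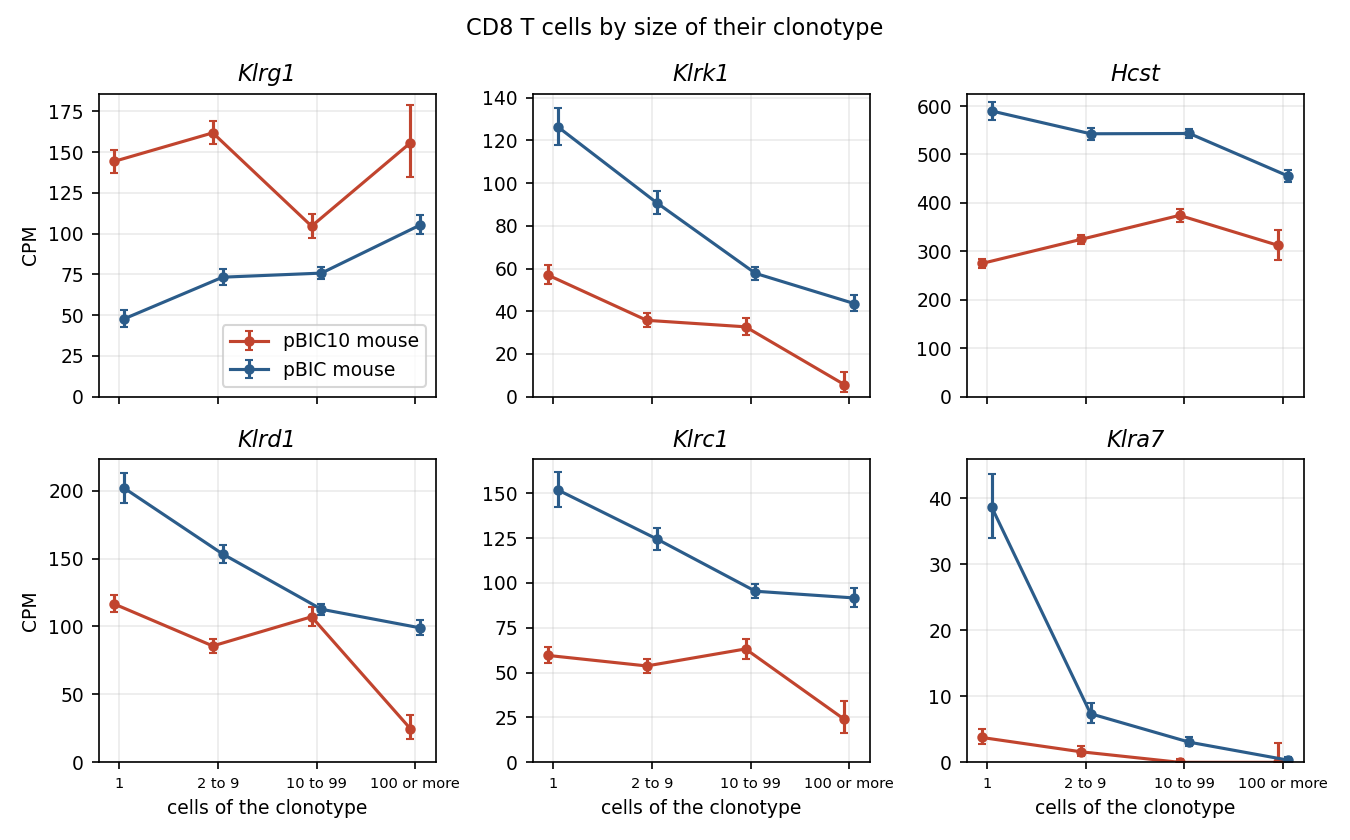
Level (CPM) of 6 genes in CD8 T cells sorted by the number of cells in their clonotype, for the pBIC10 mouse (red) and the pBIC mouse (blue), with exact 95% Poisson intervals. In the pBIC mouse Klrk1, Klrd1, Klrc1 and Klra7 are lower in each larger class and Klrg1 is highest in the largest, while in the pBIC10 mouse the largest class is a single clonotype.

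Single clonotypes spanned a far wider range than the size classes. Of clonotypes with at least 20 CD8 T cells there were 15 in pBIC10 and 54 in pBIC. Klrg1 ranged over 14.0 to 205 CPM in pBIC10 (median 45.8) and over 0 to 272 CPM in pBIC (median 51.5), and 4 of 15 and 29 of 54 clonotypes were above their mouse's singletons. Klrk1 ranged over 0 to 224 CPM in pBIC10 (median 10.3) and over 0 to 514 CPM in pBIC (median 26.7), and only 1 of 15 and 8 of 54 were above the singletons. Klrd1 ranged over 9.39 to 669 CPM in pBIC10 (median 34.3) and over 0 to 659 CPM in pBIC (median 71.7), with 3 of 15 and 8 of 54 above the singletons. Most large clonotypes were thus below their mouse's singletons in Klrk1 and Klrd1, and a few were above them.

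The largest clonotype of each mouse had more Klrg1 than the median of its large clonotypes, 45.8 CPM in pBIC10 and 51.5 CPM in pBIC. In pBIC10 its interval (135 to 179 CPM) included the 144 CPM of singletons. pBIC10 clonotype 1 (109 cells) had 156 CPM of Klrg1, 5.59 CPM of Klrk1 and 24.7 CPM of Klrd1, and pBIC clonotype 1 (309 cells) had 141, 1.57 and 11.9 CPM. The reverse pattern was found in pBIC10 clonotype 2 (68 cells), with 18.0 CPM of Klrg1, 224 CPM of Klrk1, 669 CPM of Klrd1 and 362 CPM of Klrc1, and in pBIC clonotype 33 (31 cells), with 0 Klrg1 UMIs, 514 CPM of Klrk1, 659 CPM of Klrd1 and 647 CPM of Klrc1. After thinning, a Klrd1 UMI was found in 68.7% of cells of pBIC10 clonotype 2 and in 70.0% of cells of pBIC clonotype 33.

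Both patterns could meet in 1 clonotype or be missing from it. pBIC clonotype 3 (130 cells) had 119 CPM of Klrg1 together with 208 CPM of Klrk1 and 412 CPM of Klrd1, and pBIC clonotype 2 (230 cells) had 6.22 CPM of Klrg1, 36.9 CPM of Klrk1 and 63.7 CPM of Klrd1. pBIC clonotypes 27 and 45, which had the same TRB CDR3, had 278 and 294 CPM of Klrk1, 404 and 447 CPM of Klrd1, 351 and 254 CPM of Klrc1, and 19.6 and 6.68 CPM of Klrg1. The other pair of large clonotypes with 1 shared TRB CDR3, pBIC clonotypes 35 and 41, were both lower, with 59.5 and 26.7 CPM of Klrk1 and 123 and 40.0 CPM of Klrd1. These pairs were noticed after their values were seen. Klrb1c was found above singletons in 2 of the 54 pBIC clonotypes, at most at 65.1 CPM in clonotype 47, and in none of the 15 pBIC10 clonotypes.

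Over clonotypes, Klrk1 went with Klrd1, Klrc1 and Klre1, and Klrg1 did not. Pearson's r of log2(CPM + 10) was 0.81 in pBIC10 and 0.89 in pBIC for Klrk1 with Klrd1, 0.92 and 0.80 for Klrk1 with Klrc1, and 0.90 and 0.92 for Klrk1 with Klre1, over 15 and 54 clonotypes. Without clonotype 2 the pBIC10 values were 0.52, 0.78 and 0.60. Klrg1 gave -0.38 and -0.27 with Klrk1 and -0.51 and -0.61 with Hcst. Without clonotype 2 the pBIC10 values of Klrg1 were -0.21 with Klrk1, -0.45 with Hcst and 0.15 with Klrd1, against -0.14 with Klrd1 with it. These correlations describe clonotypes of 1 library each, which share its free RNA and differ in depth, and no test was made.

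**Figure D4:**
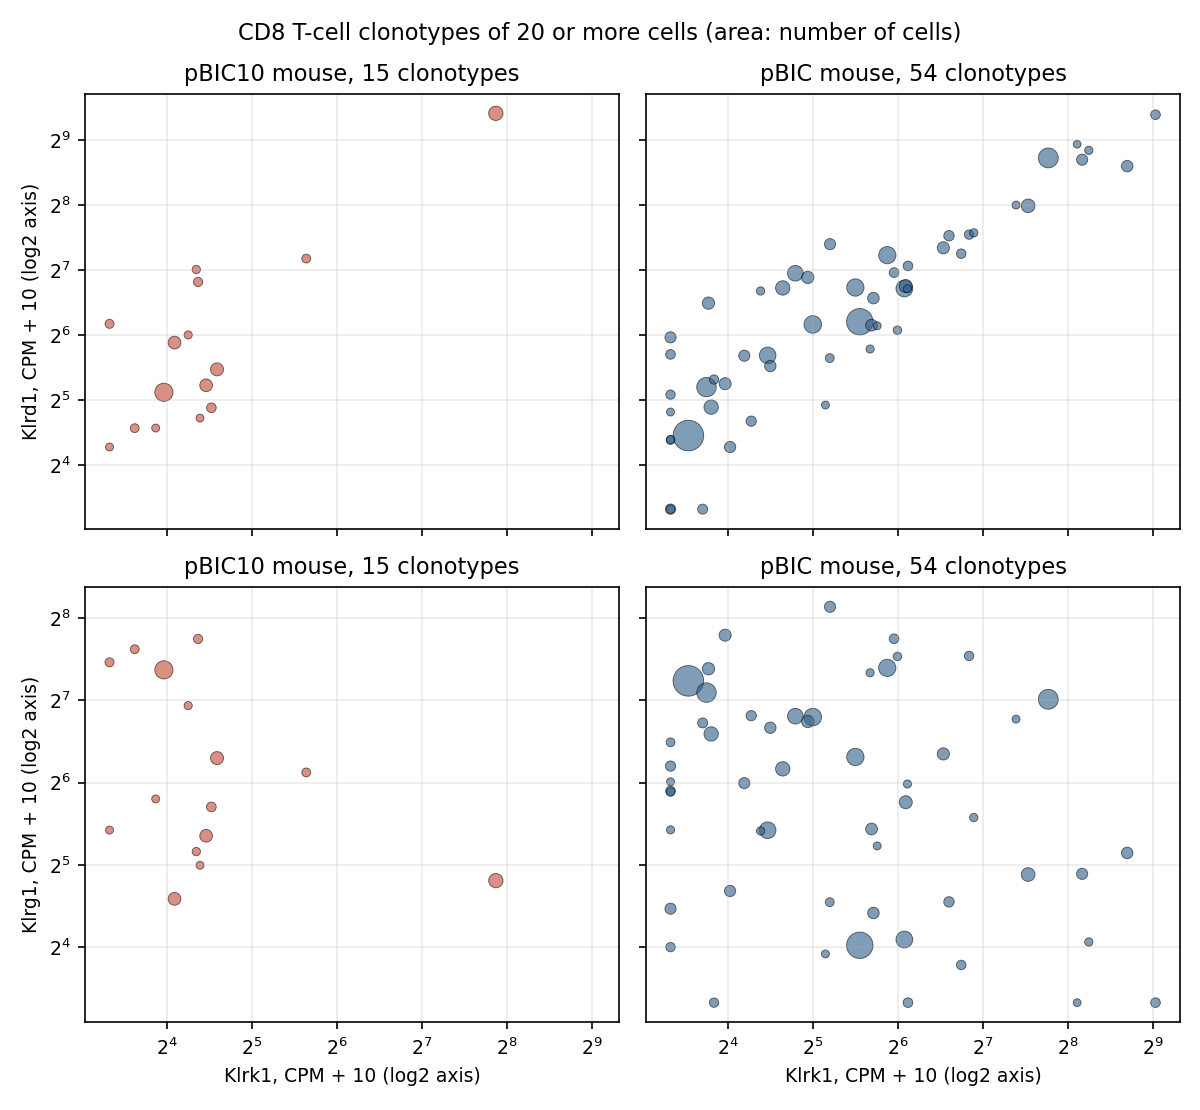
Each circle is a CD8 T-cell clonotype of 20 or more cells, its area proportional to its number of cells, with Klrk1 on the x axes and Klrd1 (top) or Klrg1 (bottom) on the y axes (CPM + 10, log2 axes). Klrd1 lies along a diagonal with Klrk1 in the pBIC mouse (54 clonotypes) and is led by 1 clonotype in the pBIC10 mouse (15 clonotypes), and the clonotypes with the most Klrk1 have mostly low Klrg1.

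The genes whose clonotype pattern was most like each receptor were named among 6123 genes by the lower of the correlations in the 2 mice. For Klrg1 they were Actg1 (r = 0.77 in pBIC10 and 0.70 in pBIC), Myl12a (0.77 and 0.70) and Arpc5 (0.69 and 0.73), which encode an actin, a myosin light chain and a subunit of the actin-nucleating Arp2/3 complex. For Klrk1, Klrd1 and Klrc1 the nearest gene was the same, the chemokine receptor gene Cx3cr1, with r = 0.67, 0.52 and 0.69 in pBIC10 and 0.62, 0.62 and 0.53 in pBIC. In pBIC10 this rested on clonotype 2, which had 57.3 CPM of Cx3cr1 against a median of 1.71 CPM, and without it r was 0.30, 0.10 and 0.41. The other genes were Grcc10 and Tmem243 for Klrk1, Chsy1 and Dgka for Klrd1, and Add3 and Igf2r for Klrc1, with r between 0.43 and 0.67 in pBIC.

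In single CD8 T cells the CD94, NKG2 and NKG2D genes were found together. Among cells thinned to 2000 UMIs (2864 in pBIC10 and 6054 in pBIC), Klrd1 was found in 59.0% of cells with a Klrk1 UMI and 13.4% of those without in pBIC10, and in 50.1% and 14.0% in pBIC. The number of cells with both genes was 3.53 times the product of their shares in pBIC10 and 2.77 times in pBIC. For Klrk1 with Klre1 the factors were 6.14 and 4.25, for Klrk1 with Klrc1 2.80 and 2.76, and for the receptor pair Klrd1 with Klrc1 2.18 and 2.14. Klrk1 and its adaptor Hcst met only 1.13 and 1.07 times as often as that product, since Hcst was in most cells: 62.4% of cells with and 54.7% without a Klrk1 UMI in pBIC10, and 72.8% and 67.7% in pBIC.

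Klrg1 was not found with the other receptors in this way. The factors were 1.03 in pBIC10 and 0.77 in pBIC for Klrg1 with Klrk1, 1.13 and 0.78 with Klrd1, and 0.96 and 0.84 with Klrc1. In singletons only, where every cell is another clonotype, the factors of Klrk1 with Klrd1 were 2.83 in pBIC10 and 1.84 in pBIC and those of Klrd1 with Klrc1 were 1.62 and 1.71, while Klrg1 with Klrd1 gave 1.46 and 0.74. With pBIC10 clonotype 2 left out, Klrk1 with Klrd1 gave 3.57. Both subsets were chosen after seeing the data. In NK cells of pBIC (95 cells after thinning) Klrk1 with Klrd1 gave 1.03 and Klrd1 with Klrc1 gave 0.96, with Klrd1 found in 75.8% of them.

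**Figure D5:**
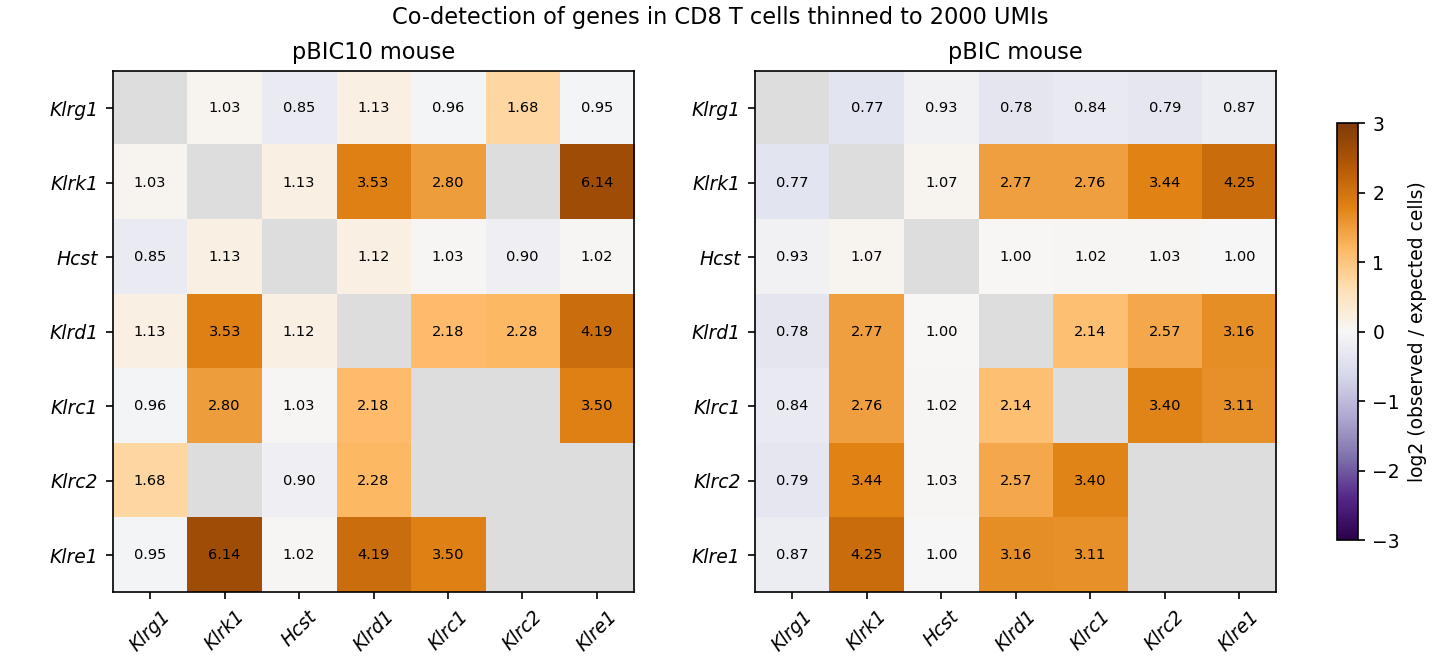
Observed number of CD8 T cells with both genes over the number expected from their shares, in cells thinned to 2000 UMIs, for the pBIC10 mouse (left) and the pBIC mouse (right); colours are on a log2 scale, and grey squares are the diagonal and pairs with fewer than 5 cells expected. Pairs among Klrk1, Klrd1, Klrc1 and Klre1 lie at 2.14 or above, whereas pairs with Hcst lie between 0.85 and 1.13.

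Counting the 9 receptors without Hcst, 2 or more were found in 12.5% of thinned CD8 T cells in pBIC10 and 15.9% in pBIC, in 1.74% and 1.45% of CD4 T cells, and in 15 of 17 and 88 of 95 NK cells. No receptor was found in 61.0% of CD8 T cells in pBIC10 and 59.6% in pBIC. Up to 8 of the 9 were found in a single NK cell of pBIC, and up to 6 in CD8 T cells of either mouse.

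CD8 T cells with a Klrg1 UMI and those with a Klrk1 UMI differed from the remaining CD8 T cells in different ways. Thinned cells with a Klrg1 UMI (488 in pBIC10 and 638 in pBIC) had more Gzma, a granzyme gene, at 202 CPM against 95.5 CPM in cells without in pBIC10 (log2 ratio 1.08) and at 446 against 266 CPM in pBIC (0.75). They had less Tcf7, a factor of memory-like T cells (-1.39 and -0.99), and less of the exhaustion-associated genes Tox (-0.81 and -0.80) and Pdcd1 (-0.58 and -0.70). In singletons of pBIC10, Tox gave -0.93 and Pdcd1 -0.72. In singletons of pBIC the intervals of Tox (-0.19, -1.05 to 0.57) and Pdcd1 (-0.51, -1.26 to 0.16) included no difference. Havcr2, which encodes the exhaustion-associated receptor TIM-3, was close to equal in pBIC10 (-0.01) and 0.51 higher on the log2 scale in pBIC (241 against 170 CPM), where it was 1.49 higher in singletons. Ifng was lower in pBIC10 (-0.87) and 0.31 higher on the log2 scale in pBIC.

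Cells with a Klrk1 UMI (210 in pBIC10 and 691 in pBIC) had more Tcf7 (0.96 and 1.07), the opposite of Klrg1-positive cells. In pBIC they had more Cx3cr1 (71.6 against 30.7 CPM, 1.22) and less Havcr2 (-0.79) and Gzmb (-0.66), whereas in pBIC10 Havcr2 (-0.06) and Gzmb (-0.11) were close to equal. Gzma was 1.64 higher on the log2 scale with Klrk1 in pBIC10 and 0.27 higher in pBIC. In singletons the log2 ratio was 1.62 in pBIC10 and -0.18 (-0.58 to 0.20) in pBIC for Gzma, and 0.63 and 0.07 for Tcf7. Cx3cr1 in pBIC10 rested on clonotype 2: without it cells with and without a Klrk1 UMI had 2 and 35 Cx3cr1 UMIs (-0.29).

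Cells with a Klrd1 UMI had more Gzma in both mice (0.87 in pBIC10 and 1.18 in pBIC), as had cells with a Klrc1 UMI (1.24 and 0.97). In pBIC, cells with a Klrd1 UMI also had more Cx3cr1 (1.08) and Tcf7 (0.90). Havcr2 with Klrd1 was 0.52 higher on the log2 scale in pBIC10 and lower in pBIC (-0.44). The cells compared share clonotypes, so these values describe the 2 libraries.

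Ligands of the receptors were measured in B cells, which held UMIs of Cd79a and Ms4a1, and in Csf1r-positive macrophage-like cells. The sorted mix held 20% lymphoma cells, and the rule for B cells does not tell lymphoma cells from other B cells. In B cells 9 of 15 ligand genes could be tested, of which 1 was higher and 6 were lower in pBIC10, where 18.5% of all genes were higher and 38.4% lower. The NKG2D ligand gene Ulbp1 was at 5.98 CPM in B cells of pBIC10 and 17.95 CPM in those of pBIC (-1.59), and Clec2d, a ligand of NKR-P1 receptors, at 37.2 and 146 CPM (-1.98). The classical class I genes H2-K1 (-1.14) and H2-D1 (-0.87) were lower too, while H2-T23, which encodes Qa-1, had a log2 ratio of -0.17. The NKG2D ligand gene H60b was higher, on 46 and 8 UMIs (2.39), and is named as the single higher ligand.

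In the macrophage-like cells 9 ligand genes could be tested, of which 2 were higher and 4 lower in pBIC10, where 9.44% of all genes were higher and 35.2% lower. Cdh1, the gene of the Klrg1 ligand E-cadherin, had 124 UMIs in pBIC10 and 2 in pBIC (4.10, interval 2.21 to 7.16), and the NKG2D ligand gene Raet1e had 79 and 4 UMIs (2.45). H2-T23 was at 304 and 509 CPM (-0.74). The 2711 and 874 cells of this class were chosen by Csf1r alone. They held 15522 CPM of macrophage markers in pBIC10 and 12943 CPM in pBIC, beside 6074 and 4251 CPM of neutrophil markers and 180 and 625 CPM of B-cell markers.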

How the data were processed

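Gene expression and TCR libraries from the spleens of 2 mice, 1 pBIC10 and 1 pBIC, were analysed. Gene expression was deposited as raw UMI counts per gene and barcode. Per the submitters' processing notes Cell Ranger 3.0.1 and build GRCm39 were used, whereas the matrix header names another Cell Ranger release, so the version behind the counts is uncertain. The authors' clonotype tables give a cell count for each clonotype and the fraction of cells that it makes up, and the count was used to sort clonotypes by size. The authors' contig tables supplied the TRB sequences.

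Filters removed barcodes with fewer than 200 detected genes or with mitochondrial RNA at 10% of UMIs or more, and cells with a Scrublet (scanpy 1.11.5) score over 0.3 were left out as doublets, 2.70% in pBIC10 and 2.78% in pBIC. The fixed score was chosen after seeing the data, because the automatic threshold called 0 doublets in pBIC. UMIs were summed over the cells of each class, scaled to CPM with the total of that class, and compared as log2 ratios. A ratio past 1.5-fold was counted where both groups held at least 20 UMIs together. CPM intervals are exact Poisson, ratio intervals exact conditional binomial and shares exact Clopper-Pearson, all at 95%. To compare shares of cells with a UMI, cells were thinned to 2000 UMIs and shallower cells left out, 45 and 76 CD8 T cells, 4 and 10 CD4 T cells, and 3 and 7 NK cells of pBIC10 and pBIC. The ratio step was tested on simulated counts.

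B cells were cells with UMIs of Cd79a and Ms4a1 and neither Cd3e, Ncr1 nor a TRB contig, a rule set after the data were seen; some genes of the lists are not reported here, list sums and counts leave them out, and an alternative for CD8 T cells that needs such a gene is not given. Every one of the 10 genes is reported in every class. Of the gene lists, up to 6 genes a direction with at least 100 UMIs are named by the size of their ratio, and others named are marked. For Klrg1, Klrk1, Klrd1 and Klrc1 the 3 genes with the most similar levels over clonotypes of 20 or more CD8 T cells are named, from genes with at least 500 UMIs there. The genes and lists were chosen with earlier results of these data known. TMM factors came from edgeR 4.0.16, used for scaling only. Other analysis used Python 3.11.15 with scipy 1.17.1.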

Additional observations from a re-analysis of the deposited data

Results flagged for a closer look

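For Klrg1, expanded clonotypes of CD8 T cells lay below singletons in pBIC10 (log2 ratio -0.37) and above them in pBIC (0.84), and the difference between the mice was not tested. Hcst lay the opposite way, with 0.41 in pBIC10 and -0.20 in pBIC, and this difference was not tested either. With each clonotype weighted equally the pBIC10 value was -0.04, and without cells holding a Ccr7 or Lef1 UMI the pBIC value was 0.03. For Klrd1, the pBIC10 over pBIC log2 ratio was -0.39 in CD8 T cells, 0.80 in CD4 T cells and -0.51 in NK cells, with the difference between classes not tested.

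Csf1r-positive macrophage-like cells, which no comparison of the T and NK cells used, held more of some of the genes than B cells and erythroid cells. Klrk1 was at 12.9 CPM in these cells of pBIC10 and 31.04 CPM in those of pBIC. Without the few cells that held an Ncr1 UMI it was at 12.8 and 30.2 CPM and was found in 229 of 2710 and 101 of 872 cells. Hcst was at 63.7 and 61.4 CPM, close to its level in B cells. Klrd1 was at 17.4 CPM in pBIC, and at 14.9 CPM without the Ncr1-positive cells. Klra7 was at 2.42 CPM in pBIC, but all 21 UMIs lay in a single cell that also held an Ncr1 UMI.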

How the results depend on the processing

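Of 336 values of single genes past 1.5-fold that were recomputed under an alternative, 335 kept their sign and 314 stayed past the limit. Part of this was fixed in advance. A changed UMI filter leaves each ratio as it was, and these tallies count such values even where the gene failed the filter. The scaling alternatives shift all ratios of a class alike. The exception in sign was Klre1 in CD4 T cells, at 0.16 in cells thinned to 2000 UMIs against -1.36, which rested on 3 UMIs in pBIC10 and 23 in pBIC before thinning. Of 4 genes past the limit in CD4 T cells, 2 were past it with a filter of 100 UMIs, 2 after thinning and 2 without cells carrying RNA of other lineages. The count in NK cells lay between 5 and 9 against 7. For expanded clonotypes over singletons in pBIC10, 2 genes were past the limit, against 4 with expansion set at 2 or more cells, 6 with clonotypes weighted equally, 1 after thinning, 5 without clonotype 2 and 0 without cells holding a Ccr7 or Lef1 UMI. The count in pBIC lay between 8 and 9 against 9. For none of these alternatives was the share of all genes past the limit computed. The Klrd1 and Klrc1 co-detection factor was 1.77 without thinning in pBIC10, against 2.18, and 1.70 at 5000 UMIs and 1.67 without thinning in pBIC, against 2.14. Apart from the alternatives that leave out cells or molecules by construction, the cause of these shifts was not tested. TMM scaling moved all log2 ratios by 0.09 in CD8 T, 0.09 in CD4 T and 0.07 in NK cells, and median-of-ratios factors by 0.11, 0.10 and 0.09. No paired analysis was possible because each genotype had 1 mouse. The NK cells of pBIC10 are few, 20 cells, and the Ly49 genes in T cells rest on few molecules.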
